A study of Solanum lycopersicum with 21 samples.

Results

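The MC-J2 list holds the regions of the tomato genome that were enriched over input when the MC and J2 proteins were incubated together with fragmented genomic DNA. All 4677 peaks in the deposited list of this complex are described here, which is 8.825% of the 52995 peaks that the authors deposited for 6 complexes. The paper states a slightly higher number of peaks for this complex. The list was taken whole, with no further selection.

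MC (MACROCALYX) is the tomato APETALA1-like MADS-domain protein, known for its part in inflorescence meristem identity, sepal size and the pedicel abscission zone. J2 (JOINTLESS2) is a SEPALLATA-like MADS-domain protein that is known for the jointed pedicel and for floral meristem maturation. MADS-domain proteins bind the CArG-box, a short motif with an A/T-rich core, as dimers, and a pair of dimers can join into a tetramer that holds neighbouring CArG-boxes on a looped DNA. AP1/FUL-like proteins of tomato need another MADS-domain protein as a partner, since they do not form homodimers.

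DNA affinity purification sequencing (DAP-seq) was used, in which proteins made in a cell-free wheat germ system are mixed with naked genomic DNA, recovered by their tag, and the DNA held by them is sequenced. MC carried the 3×FLAG tag and J2 did not, so a fragment was recovered through MC, and the peak lists hold no measure of the amount or the oligomeric state of the proteins. The MC-J2 group had 3 libraries, against 3 input libraries made from the expression mixture without plasmid, among 21 libraries in the series. The other complexes were MC with J (JOINTLESS) or the SOC1-like TM3, and FUL2, a FRUITFULL-like protein, with J, J2 or TM3. All groups used DNA from young leaves of wild-type plants of cultivar Moneyberg.

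The 3 MC-J2 alignments were merged before peaks were called, so each peak has 1 value and no replicate error could be given. Peaks of 1 list are not replicates of the complex, and no test across peaks was made. Intervals in parentheses are 95% Wilson intervals for shares and 95% binomial intervals for medians, and they cover counting error over peaks only. The other 5 lists were called over input as well, so their values are set beside those of MC-J2 and are not independent of them.

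MC-J2 bound a small part of the genome, mostly at moderate strength. The peaks covered 1.51 Mb in all. On the 12 chromosomes, with 824 Mb, lay 4664 peaks at 5.66 per Mb, and they covered 0.182% of this length. Another 13 lay on unplaced sequence. Fold, the read pileup at the summit divided by the local background after 1 was added to both, ran between 1.55 and 11.3 with a median of 4.37 (4.37–4.41), and the middle 50% of the peaks had a fold of 3.88 to 5.03. The −log10 q of the peak caller ran between 4.22 and 83.5, with a median of 16.02 (16.02–16.32) and quartiles of 12.7 and 21.6.

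Most of the list was far from its threshold of 0.0001. A −log10 q of at least 10 was reached by 4215 peaks (90.1%, 89.2–90.9%). At least 20 was reached by 1463 peaks, at least 30 by 414, at least 40 by 103 and at least 60 by 10. A fold of at least 4 was found at 3258 peaks (69.7%, 68.3–71.0%) and of at least 5 at 1225 peaks (26.2%, 25–27.5%), while 28 peaks reached 8 and only 2 reached 10. A fold below 3 was found at 158 peaks (3.38%, 2.90–3.94%) and below 2 at 7 peaks.

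Fold and p are computed by the peak caller from the same pileup and background, so that the number of reads at a summit could be recovered from them. This worked for 4605 peaks (98.46%). The merged MC-J2 treatment was 1.99 times as deep as the input. A median of 111 reads (110–112) covered a summit, with 84 reads at the 5th percentile, 173 at the 95th and extremes of 67 and 481. The local background was never below 10.39 input reads, equal to 20.68 reads at the depth of the treatment, and 2032 of the recovered peaks (44.13%) had exactly this common background.

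Fold and −log10 q ranked the peaks alike but not identically (Spearman's rho = 0.903 across 4677 peaks, given as a description because both are computed from the same reads). They parted where the background was high. The 135 peaks with a background of at least 20 input reads had a median fold of 3.239, although their summits carried a median of 162 reads. Their median −log10 q of 15.29 was near the 16.11 of all other recovered peaks. Recovered peaks with a fold below 3 had a median of 114 reads over a median background of 19. The other recovered peaks had 111 reads over a background of 11. Median −log10 q was 8.87 at the former and 16.32 at the latter. In the median of the recovered peaks, low folds thus stood beside a higher input level and not beside fewer reads, though single peaks among them had fewer reads. Reads were recovered at 91 of the 158 peaks with such a fold, among them peaks on unplaced sequence with 310 to 481 reads. The medians leave out the other 67, whose reads are not known, so they may not hold for all peaks with a fold below 3.

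**Figure D1:**
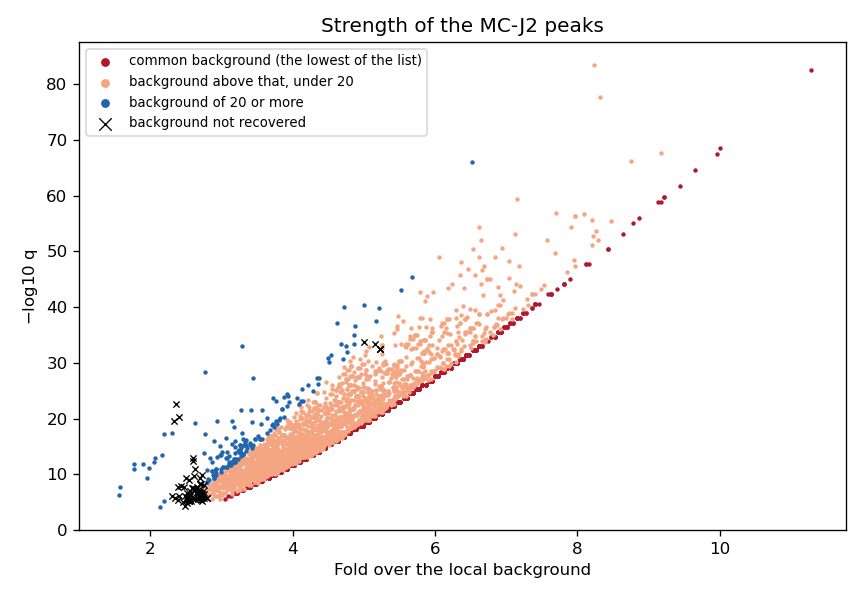
Fold over the local background (x axis) against −log10 q (y axis) for the 4677 MC-J2 peaks, coloured by the recovered background in input reads. Peaks with the common background form the lower edge, peaks with a background of 20 or more lie above it at the same fold, and the 72 peaks whose background was not recovered lie mostly at folds under 3.

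Because reads are whole, the values of the peaks were stepped. The 4677 peaks took 1765 different folds and 1318 different values of −log10 q, and a single −log10 q of 14.0732 was shared by 128 peaks.

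Peaks were narrow, and stronger peaks were wider. The median width was 309 bp (306–311), with quartiles of 277 and 353 bp, a lowest value of 252 bp and a highest of 916 bp. The lower bound was sharp, since 481 peaks (10.3%) were 260 bp or narrower. With the peaks cut by −log10 q into 4 parts of equal size, lowest to highest, the median width was 276, 286, 315 and 369 bp, and the median number of reads at the summit was 90.0, 101, 115 and 145. Across all peaks the rank correlation of width was 0.627 with −log10 q and 0.525 with fold. A width of at least 500 bp was found at 72 peaks and of at least 600 bp at 22.

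The summit lay near the middle of the peak. It was at 49.6% of the width in the median peak, and at 4376 peaks (93.6%, 92.8–94.2%) it fell in the central 1/3 of the width. This share was 83.8% (81.6–85.8%) in the weakest of the 4 parts by −log10 q, then 93.8%, 98.0% and 98.6% (97.8–99.2%) in the strongest. The widest peaks were the exception. Among the 72 peaks of at least 500 bp, 36 (50%, 38.7–61.3%) had such a central summit, against 4020 of 4259 (94.4%, 93.7–95%) at peaks of up to 400 bp. The widest peak, on chromosome 6 at 38933277 to 38934192 (Moneyberg genome, as are all positions given), was 916 bp wide with its summit 698 bp from its start and a fold of 7.28 (−log10 q 38.9). The next were 884 bp wide on chromosome 7 at 47838693 to 47839576, with its summit 182 bp from its start and a fold of 2.98 over a background of 29.0 input reads, and 833 bp wide on chromosome 3 at 29535708 to 29536540, with its summit 197 bp from its start and a fold of 3.15 over a background of 32. The summit lay far to one side in all 3 of them, and only the first had the common background.

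MC-J2 peaks were sparser towards the ends of the chromosomes, and they were about as strong there as elsewhere. In tomato, genes are concentrated in the distal euchromatin and the large pericentromeric heterochromatin is rich in repeats. The end of the last peak in any of the 6 lists stood for the end of a chromosome. In the first Mb from either end 78 peaks lay at 3.25 per Mb, followed by 4.44 per Mb at 1 to 5 Mb, 4.28 at 5 to 10 Mb, 5.37 at 10 to 20 Mb and 6.85 per Mb farther inside. The stretch beyond 20 Mb held 2357 peaks (50.5%, 49.1–52.0%) on 41.8% of the length, whereas the first 5 Mb from the ends held 504 (10.8%, 9.95–11.7%) on 14.6% of the length. The interior density was 2.11 times that of the first Mb.

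Strength changed little along this gradient. The median −log10 q was 14.4 (13.4–16) in the first Mb and between 16 and 16.2 in the 4 bands farther inside, with 16.2 (16–16.7) beyond 20 Mb, so that the intervals of the outermost and the innermost band touched. The median fold was 4.28 (4.02–4.46) in the first Mb and 4.4 (4.36–4.46) beyond 20 Mb. Of the strongest 468 peaks, those with a −log10 q of at least 29.1, 45 (9.62%, 7.26–12.6%) lay within 5 Mb of an end, a share whose interval includes the 10.8% of the whole list.

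With both ends of a chromosome pooled the direction was the same on each chromosome, but it did not hold at every single end. Density beyond 5 Mb exceeded that within 5 Mb of the pooled ends on 12 of 12 chromosomes, with a median ratio of 1.41. The ratio was 1.01 on chromosome 11, which was nearly even, 1.06 on chromosome 8 and 1.98 on chromosome 12. The low-numbered end of chromosome 2 was denser than the interior of that chromosome, at 6.8 against 6.45 per Mb. The low-numbered end of chromosome 11 and the high-numbered ends of chromosomes 7 and 8 were also denser than their interiors. All other ends were sparser. The weak contrast on chromosome 8 moved with a single place, since its high-numbered end held 35 peaks in 5 Mb (7.0 per Mb), 13 of them in the cluster described further on, and 22 (4.4 per Mb) without it. Among the 24 chromosome ends the low-numbered end of chromosome 1 had the fewest peaks, 13 (2.6 per Mb). Along chromosomes cut into 10 equal parts, density climbed to 7.32 per Mb in the 6th part, from 3.98 in the first, and dropped to 4.04 in the last, while the median −log10 q stayed between 15.3 and 16.7. Whole chromosomes differed less, with chromosome 6 the sparsest at 4.66 peaks per Mb and chromosome 2 the densest at 6.27.

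Of the other lists, FUL2-J2, MC-J and FUL2-J were also sparser near the ends. The TM3 lists were denser in the first Mb, but sparser at 1 to 5 Mb than beyond 20 Mb. Density beyond 5 Mb over that within 5 Mb of the ends was 1.41 for MC-J2, against 1.36 for FUL2-J2, 1.67 for MC-J and 1.59 for FUL2-J. The share within 5 Mb was 10.8% (9.95–11.7%) for MC-J2, against 11.1% (10.3–12%) for FUL2-J2 and 9.30% (8.76–9.86%) for MC-J. The MC-J2 interval overlapped that of FUL2-J2 and lay above that of MC-J, by counting error alone and without replicate error. In the MC-TM3 list, with the same MC protein, the ratio was 0.686. Its excess lay in the first Mb, at 59.0 peaks per Mb with a median fold of 2.89. At 1 to 5 Mb MC-TM3 had 8.75 per Mb, against 15.4 beyond 20 Mb, and so was sparser there as MC-J2 was. FUL2-TM3 had 205 peaks per Mb in the first Mb, with a median fold of 2.94. At 1 to 5 Mb FUL2-TM3 was also sparser, with 4.76 per Mb against 8.33 beyond 20 Mb. The difference between MC-J2 and MC-TM3 was not tested, since neither list has values per library.

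**Figure D2:**
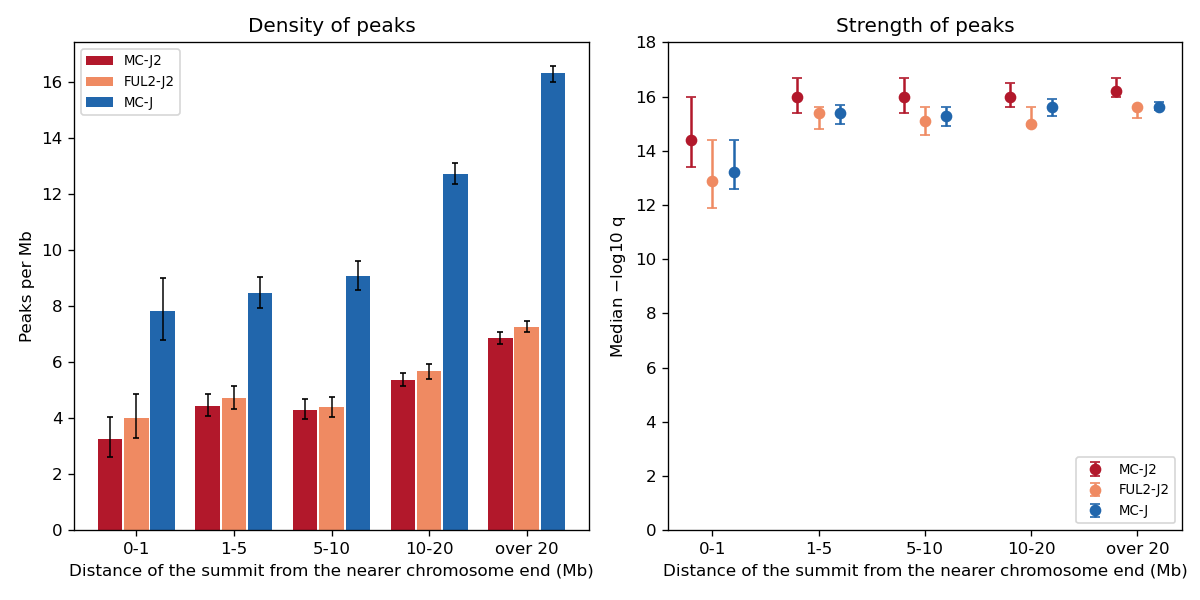
Peaks per Mb (left) and median −log10 q (right) by distance of the summit from the nearer chromosome end in Mb, for MC-J2, FUL2-J2 and MC-J, with bars for 95% intervals (binomial, over peaks). MC-J2 density is 3.25 per Mb in the first Mb and 6.85 per Mb beyond 20 Mb, while its median −log10 q stays between 14.4 and 16.2.

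Peaks were unevenly spread also at a finer scale. In 819 windows of 1 Mb the number of MC-J2 peaks had a median of 5, a mean of 5.68 and a variance of 10.5, and 21 windows had none. Counts with no structure would have a variance equal to their mean, and here it was 1.84 times the mean. More than 20 Mb from the ends, where density was high throughout, it was still 1.59 times the mean over 339 windows, and 4 of these were empty. The fullest window, on chromosome 8 between 67 and 68 Mb, had 21 peaks, of which 13 were in a single cluster described further on. The next fullest windows had 16, and 13 windows had at least 15.

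Between neighbouring summits the median distance was 107 kb (102–111), with quartiles of 38.8 and 232 kb, a shortest distance of 459 bp and a longest of 3.96 Mb. An even spread at the same density, which here means independent placement with exponential distances and not equal distances, gives a median of 122 kb. Distances of over 1 Mb occurred 49 times. The longest lay on chromosome 11 between 17594126 and 21549172, where MC-J2 had no peak. In this stretch FUL2-J2 had 1 peak, FUL2-TM3 had 2, MC-TM3 had 4, MC-J had 13 and FUL2-J had 23. The stretch was chosen for having no MC-J2 peak, and the FUL2-J2 list and both TM3 lists were nearly empty there too. MC-J and FUL2-J were also sparse there, with 13 and 23 peaks in 3.96 Mb. At 10 to 20 Mb from the ends these lists had 12.7 and 11.9 peaks per Mb.

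Short distances were more frequent than an even spread gives. Neighbouring summits on the chromosomes lay within 10 kb of each other in 412 pairs, where 256 would be found at an even spread, a ratio of 1.61. With a separate density for each of the 5 bands of distance from the ends the even spread gives 266 pairs and the ratio was 1.55, so that the gradient along the chromosome held little of the excess. The ratio was 1.52 within 5 kb, 1.44 within 20 kb and 1.11 within 100 kb. Below 1 kb it turned, with 22 pairs found and 26.3 at an even spread, and a single pair was closer than 0.5 kb. At that range the width of a peak limits how close neighbours can be called.

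**Figure D3:**
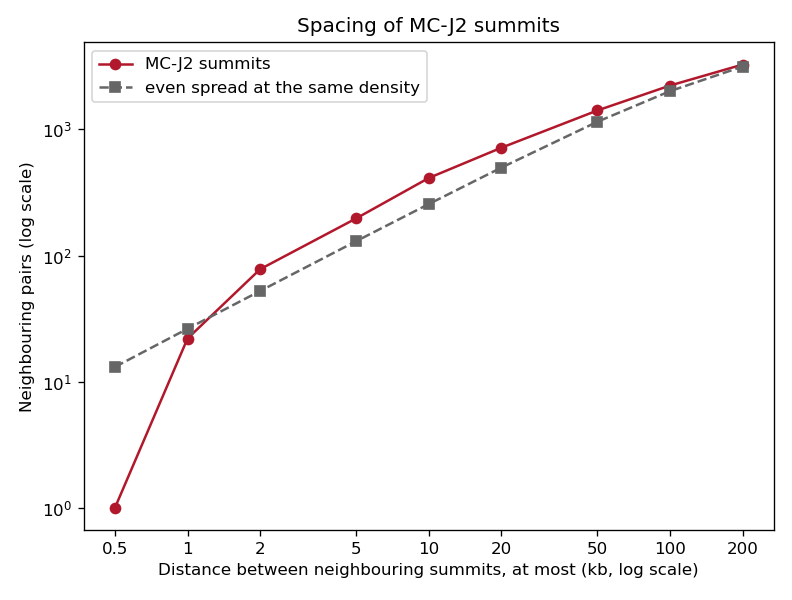
Number of neighbouring MC-J2 summit pairs within a given distance in kb (both axes on log scales), with the number that an even spread (independent placement) of the same density gives. Observed pairs lie above the even spread between 2 and 100 kb, with 412 against 256 at 10 kb, and under it at 1 kb and less.

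When neighbouring summits within 10 kb were joined, 773 peaks (16.5%, 15.5–17.6%) fell into 360 clusters and 3904 stood alone. Clusters were small, with 324 pairs (90.0%), 29 of 3 summits, 5 of 4, 1 of 5 and 1 of 13. Peaks in clusters had a median −log10 q of 16.7 (16–17.0) and a median fold of 4.44 (4.37–4.50), against 16 (16–16.2) and 4.37 (4.34–4.41) at lone peaks. Median width was 314 bp (310–319) in clusters and 307 bp (304–310) alone. These intervals overlapped or touched. Within a cluster the strengths of neighbours were nearly unrelated (Spearman's rho of −log10 q = 0.0943 over 413 pairs within 10 kb, and 0.00275 over 2432 pairs more than 100 kb apart). By distance from the ends, the share of peaks in clusters was 20.5% (13–30.8%) in the first Mb, 14.8% at 1 to 5 Mb, 10.9% (8.49–13.9%) at 5 to 10 Mb, 14.4% at 10 to 20 Mb and 19.1% (17.6–20.8%) beyond 20 Mb. The second of these values held the largest cluster, and without it the share was 12.1% (9.30–15.6%).

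The largest cluster was a regular array. It lay on chromosome 8 at 67320220 to 67352742, over 32.5 kb and 1.54 Mb from the chromosome end, and its 13 summits had no other MC-J2 summit within 50.9 kb before or 42.4 kb after them. The first summit was followed by an interval of 9879 bp. Each of the other 11 distances was within 5% of 1, 2 or 3 times 1496 bp, with 8 distances of 1 unit (1470 to 1549 bp), 2 of 2 units and 1 of 3 units, so that the last 12 summits spanned 15 units. Strength within the array was mostly below that of the list. Fold ran between 2.31 and 5.25 with a median of 3.74, and −log10 q between 6.17 and 21.2 with a median of 14.5, below the medians of the whole list. The summits carried 102 to 132 reads at the 12 peaks where they were recovered. The input background was 10.4 to 17.0 reads with a median of 14, against a common background of 10.39 in this list.

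Other complexes had peaks at the same places. FUL2-J had 17 peaks over the array, MC-J had 13, FUL2-J2 had 11, MC-TM3 had 3 and FUL2-TM3 had 1. After the first summit FUL2-J had 16 peaks, 12 of them with an MC-J2 summit within 100 bp. At the 4 places where MC-J2 had no peak the fold in the FUL2-J list was 3.43 to 4.39 with a median of 3.62, against 3.42 to 6.10 with a median of 5.02 at the 12 places with an MC-J2 peak. The places without an MC-J2 peak were thus mostly among the weaker ones of that list, although the ranges overlapped. The sequence of the Moneyberg genome was not used here, so whether the unit is a tandem repeat was not tested.

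**Figure D4:**
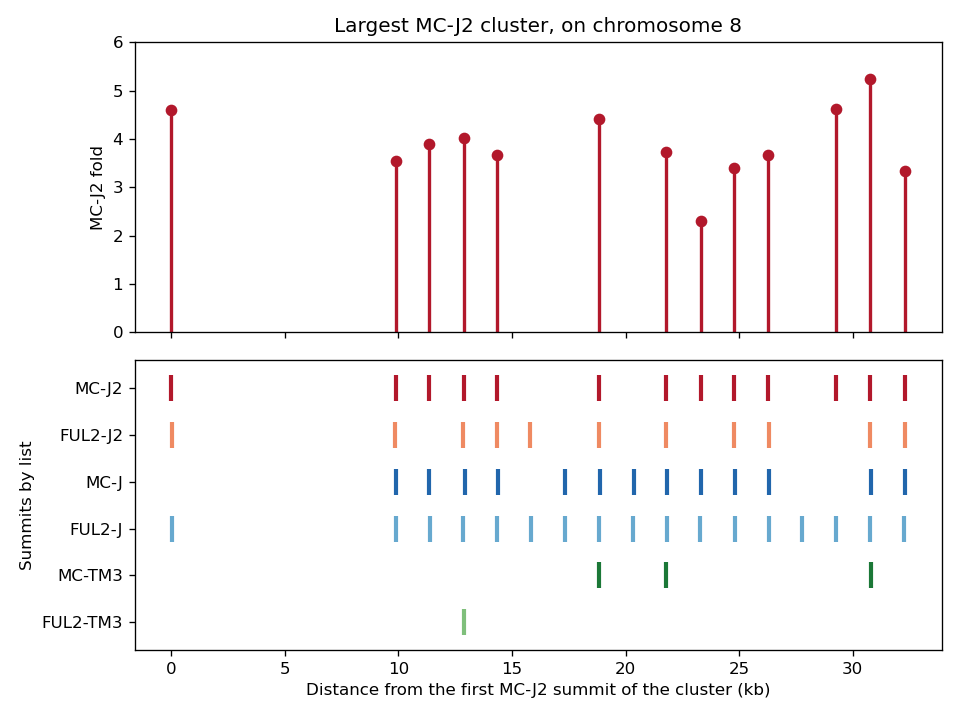
The largest MC-J2 cluster, with the fold of each MC-J2 peak (top) and the summits of the 6 lists (bottom) by distance in kb from its first MC-J2 summit. The last 12 MC-J2 summits stand at 1, 2 or 3 times 1496 bp from each other, and FUL2-J has 16 peaks after the first summit, including 4 at places where MC-J2 has none.

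Similar consecutive distances also occurred at a few other places, which were singled out after their distances were known and were not tested against unrelated distances. Of 132 cases with 3 consecutive summits and both distances within 20 kb, 12 had distances that differed by at most 5%, 5 of them in the array on chromosome 8 and 7 elsewhere. On chromosome 4 at 52072081 to 52095932, 4 summits were 7834, 7843 and 7946 bp apart. They had folds of 3.23, 7.01, 4.83 and 3.79, and MC-J had no peak there while FUL2-J2 had 2. On the unplaced sequence 4 summits between 3850591 and 3940393 were 29832, 29829 and 29850 bp apart. Their folds were alike, 2.19 to 2.40, and in the 2 of them where it was recovered the input background was 72.0 and 83.0 reads. FUL2-J had 4 peaks over the same stretch, with folds of 2.42 to 2.84 and distances of 29825 to 29862 bp, and FUL2-J2 had 3, at 29814 to 29818 bp. The other lists had further peaks in between, with MC-J at 10 peaks 3483 to 22427 bp apart, MC-TM3 at 7 peaks 1718 to 29826 bp apart and FUL2-TM3 at 4 peaks 4335 to 29835 bp apart.

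The unplaced peaks as a group had low folds over a high background. Their median fold was 2.06, against 4.32 to 4.46 as the medians of the 12 chromosomes, and their median −log10 q was 12.9. Of the 7 folds below 2 in the whole list, 6 were on this sequence, and the highest background, 154 input reads, belonged to one of these, with a fold of 1.57. The exception was a peak at 664491 to 664787, with a fold of 4 over a background of 13.1.

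After the array, the clusters with the most summits and the highest summed −log10 q were on chromosomes 12 and 9, and both had uneven distances. On chromosome 12 at 45389296 to 45407711, 5 summits lay 5679, 4572, 3576 and 4315 bp apart, with folds of 4.12, 5.95, 7.06, 4.85 and 3.99. The strength peaked in the middle of that cluster, with a −log10 q of 37.2 at the 3rd summit. On chromosome 9 at 23993799 to 24005367, 4 summits lay 1193, 2315 and 7720 bp apart. They were of similar strength, with folds of 4.76 to 6.03 and a −log10 q of 22.5 to 29.3, all above the upper quartile of the list.

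The 10 strongest sites by −log10 q were spread over 6 chromosomes and lay in the interior. The peak with the highest −log10 q, 83.5, was on chromosome 1 at 69878589 to 69879056, with a fold of 8.23 and 324 reads over a background of 18.9. On chromosome 8 at 15955804 to 15956221 a −log10 q of 82.5 came with the highest fold of the list, 11.3, and 254 reads over the common background. The third was on chromosome 5 at 40686767 to 40687193, with a fold of 8.32 (−log10 q 77.6) and 296 reads. It was followed by a peak on chromosome 12 at 33836676 to 33837105, with a fold of 10 (−log10 q 68.5), the second highest. Fold and −log10 q thus put different peaks first, and these peaks differed in both reads and background.

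The other 6 of the 10 highest by −log10 q had values of 61.6 to 67.6. They were on chromosome 4 at 24647685 to 24648093 and at 54244641 to 54245049, on chromosome 2 at 21994313 to 21994762 and at 24499089 to 24499537, on chromosome 5 at 48706121 to 48706579, and on chromosome 12 at 50655818 to 50656329. The second of the chromosome 2 sites was 8th by −log10 q but 202nd by fold, with 305 reads over a background of 22.7 and a fold of 6.52. The 10 peaks were 409 to 512 bp wide, and their summits were 13.9 to 33.8 Mb from the nearer end. Each of them overlapped a peak in all 5 other lists. At the first of them the fold was 8.23 in the MC-J2 list, 7.72 for FUL2-J2, 7.90 for MC-J, 8.32 for MC-TM3, 7.16 for FUL2-TM3 and 9.56 for FUL2-J. At the chromosome 2 site at 21994313 it was 9.97 for MC-J2, 8.70 for FUL2-J2, 6.25 for MC-J, 8.16 for MC-TM3, 4.29 for FUL2-TM3 and 8.55 for FUL2-J. The lists differ in depth, and these values are given side by side without a test.

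Every chromosome had a peak of high strength. The strongest by −log10 q reached 42.3 on chromosome 6 and 54.3 or more on each of the others, with 56.8 on chromosome 3, 59.7 on chromosome 7, 54.3 on chromosome 9, 55.9 on chromosome 10 and 58.8 on chromosome 11. The one on chromosome 7, at 66437297 to 66437776, was the only one of these 12 within 5 Mb of an end, at 2.84 Mb, and had a fold of 9.22. All 12 overlapped a peak in each of the 5 other lists.

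Genes could be named for a part of chromosome 1, where the authors' annotation of the FUL2-J peaks was readable. It was used for the gene and the kind of place only, at MC-J2 peaks that overlapped an annotated FUL2-J peak, and the 15 strongest MC-J2 peaks annotated to a promoter, exon or intron are given. The strongest peak of the whole list was annotated to the promoter of Solyc01g065500, with a −log10 q of 83.5. The promoter of Solyc01g066280 followed with a fold of 6.95 (−log10 q 38.1), and that of Solyc01g099400 with a fold of 6.35 (−log10 q 30.7). Promoter peaks with a −log10 q of 21.6 to 29.4 were those of Solyc01g090880, Solyc01g097860, Solyc01g005610, Solyc01g105590, Solyc01g067080 and Solyc01g067230. Exon peaks were in Solyc01g107990 (fold 6.09) and Solyc01g081540 (fold 5.56). Intron peaks were in Solyc01g067480, Solyc01g096900, Solyc01g079210 and Solyc01g008560, with folds of 4.99 to 5.6. The 15 were chosen by strength among these classes, so their division into classes describes these peaks only. The peaks of Solyc01g065500, Solyc01g005610, Solyc01g081540 and Solyc01g105590 overlapped all 5 other lists, and those of Solyc01g097860 and Solyc01g067480 only 2.

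Most MC-J2 peaks were also peaks of other complexes, counted with an overlap of at least 1 bp. The largest shares were with FUL2-J2, the list with the same partner, at 3544 peaks (75.8%, 74.5–77.0%), and with MC-TM3, at 3535 (75.6%, 74.3–76.8%). FUL2-J overlapped 3111 (66.5%), MC-J 2389 (51.1%, 49.6–52.5%) and FUL2-TM3 1849 (39.5%). MC-J, with the same MC protein, thus covered fewer MC-J2 peaks than MC-TM3 did, though both lists are longer than that of FUL2-J2. The shares depend on the length of the other list. FUL2-J2 had 4940 peaks, FUL2-J 10449, FUL2-TM3 10654, MC-J 10818 and MC-TM3 11457. Of the 10335 FUL2-TM3 peaks on the chromosomes, 4918 lay in the first Mb from an end, where MC-J2 had 78. Such shares were not computed for the other lists, so they are not shown to be particular to MC-J2. Among pairs of lists, 350 MC-J2 peaks were shared with FUL2-J2 and MC-TM3 only, 315 with FUL2-J2 alone and 201 with MC-TM3 alone.

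Peaks that more complexes shared were stronger and wider. All 5 other lists had a peak at 1289 sites (27.6%, 26.3–28.9%), and none had one at 384 (8.21%, 7.46–9.03%). Neither share was computed for the other lists. From 0 to 5 other lists, the median −log10 q was 12.8, 13.8, 14.4, 16, 17.1 and 21.7. Median fold was 4.06 (4.01–4.15) at peaks in no other list and 4.87 (4.81–4.97) at peaks in all 5, and median width was 271 bp (268–275) and 358 bp (353–362). The median number of reads at the summit was 95 and 133. Of the strongest 468 peaks, 341 (72.9%) were in all 5 other lists and 1 was in none. Strength here is that of the MC-J2 list, and a peak near the threshold in any list can be missed there.

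**Figure D5:**
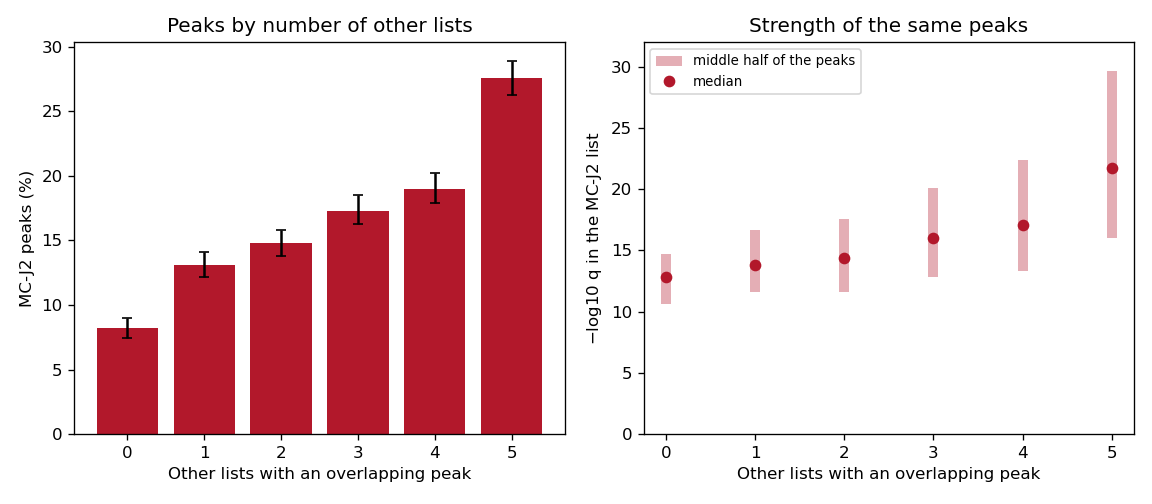
Share of MC-J2 peaks in percent (left) and their −log10 q (right) by the number of other lists with an overlapping peak, with 95% Wilson intervals on the left and the median with the middle 50% of peaks on the right. The median is 12.8 at the 384 peaks in no other list and 21.7 at the 1289 peaks in all 5.

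Sharing also varied along the chromosomes. Peaks in all 5 other lists made up 17.9% (11–27.9%) of the MC-J2 peaks in the first Mb, 17.6% (14.3–21.5%) at 1 to 5 Mb, 22.2% at 5 to 10 Mb, 28.1% at 10 to 20 Mb and 30.5% (28.7–32.4%) beyond 20 Mb. The share in no other list was 10.8% (8.19–14.1%) at 1 to 5 Mb and 6.83% (5.88–7.92%) beyond 20 Mb. MC-J2 sites of the interior were thus more often common to all complexes, while their own median strength differed little from that of sites at 1 to 5 Mb. All 5 other lists were themselves denser beyond 20 Mb than at 1 to 5 Mb. Density rose from 8.46 to 16.3 per Mb for MC-J and from 8.75 to 15.4 for MC-TM3. It rose from 4.72 to 7.26 for FUL2-J2, against 4.44 to 6.85 for MC-J2. Whether the higher share in the interior goes beyond this higher density of the other lists was not tested.

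The 384 peaks in no other list were mostly weak. Their −log10 q was between 4.29 and 33.1, with 16 peaks at 20 or more, and 113 (29.4%) were 260 bp or narrower, against 10.3% in the whole list. They were found in clusters about as often as all peaks, at 69 of 384 (18%). The strongest was on chromosome 1 at 46862476 to 46862791, with a fold of 6.66, a −log10 q of 33.1 and 149 reads over the common background, which placed it 283rd in the list. Next were chromosome 1 at 1666902 to 1667168, with a fold of 5.57 (−log10 q 24.7), and at 77223259 to 77223531, with a fold of 4.60 (−log10 q 23.1). All 3 were on chromosome 1, and the second was 1.67 Mb from its end.

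A weak peak was not always missing from the other lists. The weakest peak of the list, on chromosome 1 at 40545750 to 40546149, had a fold of 2.13, a −log10 q of 4.22 and 104 reads over a background of 24.0, and it overlapped a peak in all 5 other lists, with folds of 2.46 for MC-J and 3.87 for MC-TM3. The next weakest, also on chromosome 1 at 68519807 to 68520063, had a fold of 2.48 (−log10 q 4.29) and was in none of them.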

How the data were processed

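DAP-seq peaks were analysed as deposited, 1 list for each of 6 complexes. According to the labels and the paper's methods, the authors used Trim Galore for trimming, HISAT2 for mapping to the Moneyberg genome and, on the merged libraries of each complex, MACS2 for peak calling at a threshold of 0.0001. Versions and the way input libraries were combined are not given in the sources used here. The deposited lists hold the fold over background (a ratio), −log10 p and −log10 q as the authors' caller wrote them, and the summit offset (other). No counts per library were used here, and PCR duplicates were not distinguished, so intervals cover counting error only.

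Lists were read and plotted in Python 3.11.15 (matplotlib 3.10.9, pandas 2.3.3, scipy 1.17.1, numpy 2.4.6). Reads at summits were recovered from the formulas of MACS2 for fold (pseudocount 1) and p. A pileup was whole within 0.1 reads, and of 861 peaks kept out of the estimate of the weight of a read, 100% were whole. These 861 peaks had the common background. At higher backgrounds a whole number was a condition for a solution, so wholeness was no check there. Tested on 2000 simulated peaks with a set weight of 0.5, the procedure solved 93.75%, and 100% of the solved peaks had the simulated number of reads. The simulated backgrounds were whole numbers and did not reach the highest of the list, 154. The simulated reads did not reach the low end of the list, with 67 reads at the lowest and 84 at the 5th percentile, nor its highest of 481. Recovery was not tested there. The weakest of the 4 parts by −log10 q, with a median of 90 reads, lay in large part below the simulated range. Ends were 5 Mb long and clusters joined summits within 10 kb. Named sites were the 10 highest by −log10 q, the 5 highest by fold, the strongest of each chromosome, the 3 largest clusters, the 3 strongest in no other list, the 3 widest, the 2 weakest and the 15 strongest annotated sites of chromosome 1. Members, lists and rules were chosen with earlier results of these data known. Alternatives were stricter lists, other distances for clusters and ends, other overlap rules and leaving out the unplaced sequence.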

Additional observations from a re-analysis of the deposited data

How the results depend on the processing

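Of 34 alternatives over 9 results, 24 kept the value within its interval (for the number of peaks, within 1.5 times) and 10 moved it. Directions were not compared. With a −log10 q of at least 10, median width was 313 bp, median distance between summits 116 kb, the share with a fold below 3 was 0.854% and the share of summits in the central 1/3 95.5%. The rest moved by construction. Clusters within 5 kb held 8.02% of the peaks and within 20 kb 27.9%, ends of 1 Mb held 1.67% and of 10 Mb 21.8%, a fold below 2 was found at 0.150%, and the middle 50% of the peak held 98.8% of the summits. Without the largest cluster, an alternative added after seeing the data, 16.3% of peaks were in clusters and 10.6% near the ends, and 400 pairs lay within 10 kb, 1.56 times an even spread. Requiring an overlap of 50% of both peaks put 8.55% of the peaks in no other list, and summits within 100 bp 9.0%.

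No paired analysis was possible because the lists were called on merged libraries and hold no values per replicate. The lowest number of reads recovered at a summit was 67. The weakest peak, with a −log10 q of 4.22, had 104 reads over a background of 24.0, so the reads needed for a peak depended on the background. Binding too weak to reach the threshold over its background was not detectable at this depth.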
